A study of Mus musculus with 28 samples.

Results

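The nuclear factor I (NFI) genes Nfia, Nfib and Nfix were followed through all 11 peak lists of the series. They were chosen by name, and are 3 of the 21761 protein-coding genes placed on the mouse chromosomes in RefSeq's table of assembly GRCm38.p6. Each was examined in its gene body extended by 10 kb on both sides, and again with 100 kb. Nfic, the other gene of the family, is set beside them.

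The series recorded where CTCF, Rad21 and Ldb1 sit on chromatin in the olfactory sensory neurons of the mouse nose, by chromatin immunoprecipitation and sequencing of formaldehyde-fixed sorted cells. Control mature neurons carried OMP-IRES-GFP and gave 3 Ldb1, 2 CTCF and 2 Rad21 libraries. Ldb1 was also mapped in 2 libraries of mature neurons that were Lhx2fl/fl and carried Rosa-CAG-tdtom+/fl with OMP-IRES-Cre, called Lhx2 KO here, and in 2 libraries of Olfr1507+ cells from M28-IRES-GFP mice. Omp is a gene of mature neurons, so the recombinase of the Lhx2 KO acts from maturity on. Age, sex and strain are not given in the labels, and neither is whether libraries came from separate animals, so p-values cover the spread over libraries, which can be technical in origin. RNA libraries were not analysed here, so nothing below is a level of expression.

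NFI proteins bind DNA as dimers at paired TTGGC sites. They are best known in the nervous system for switching progenitors towards glia and for the timing of neuronal maturation, and in the olfactory epithelium Nfia, Nfib and Nfix are graded across the zones within which odorant receptor genes are chosen. Ldb1 binds no DNA itself and is brought to chromatin by DNA-binding partners, Lhx2 among them, a LIM-homeodomain factor whose core motif is TAATTA. CTCF marks domain boundaries and loop anchors, and cohesin, the ring complex that holds Rad21, is halted there.

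The start sites come first, because no Ldb1 peak lay in the listed start windows of Nfia and Nfix. No start of Nfib is listed, so how far its Ldb1 regions lie from a start is not known here. The sequences are RefSeq's (GRCm38.p6), 250 bases before to 50 after a start, 5′ to 3′ on the gene's strand. Capitals mark any match, on either strand, to TAATTA or to TTGGC, which cannot overlap. The Nfia window (chr4:97581693-97581992, plus strand) held neither, and no peak of any list. The first Nfix window (chr8:84780033-84780332, minus strand) held 1 TAATTA and no peak. Gm19417 (chr4:97868960-97869259, minus strand), a noncoding gene inside Nfia, had peaks of both Rad21 libraries and of Olfr1507 library 2. Gm11266 (chr4:82507739-82508038, plus strand) starts just past the high-coordinate end of Nfib between a pair of Ldb1 regions. G430095P16Rik (chr8:84722807-84723106, plus strand), inside Nfix, had peaks of both CTCF libraries and of Rad21 library 2. Calr (chr8:84846882-84847181, minus strand), the gene of the chaperone calreticulin in the Nfix window, had peaks of both CTCF libraries, Rad21 library 2 and control Ldb1 library 2.
Nfia: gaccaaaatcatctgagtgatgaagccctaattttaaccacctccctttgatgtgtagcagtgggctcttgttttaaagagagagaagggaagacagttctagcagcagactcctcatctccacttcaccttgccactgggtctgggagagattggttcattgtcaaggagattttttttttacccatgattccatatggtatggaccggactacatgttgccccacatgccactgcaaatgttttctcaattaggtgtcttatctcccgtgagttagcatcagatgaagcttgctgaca
Nfix: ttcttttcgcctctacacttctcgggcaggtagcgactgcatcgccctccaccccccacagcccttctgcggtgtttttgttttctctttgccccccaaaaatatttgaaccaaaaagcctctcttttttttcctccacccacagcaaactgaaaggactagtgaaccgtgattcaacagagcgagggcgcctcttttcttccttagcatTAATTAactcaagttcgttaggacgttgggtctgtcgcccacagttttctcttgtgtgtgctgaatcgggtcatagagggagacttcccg
Gm19417: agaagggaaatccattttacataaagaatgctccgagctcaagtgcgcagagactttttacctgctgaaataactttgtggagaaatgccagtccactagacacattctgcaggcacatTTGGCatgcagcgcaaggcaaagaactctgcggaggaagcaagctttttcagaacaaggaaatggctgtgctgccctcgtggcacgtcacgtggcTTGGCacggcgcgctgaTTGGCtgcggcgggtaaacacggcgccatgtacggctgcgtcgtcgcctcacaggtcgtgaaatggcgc
Gm11266: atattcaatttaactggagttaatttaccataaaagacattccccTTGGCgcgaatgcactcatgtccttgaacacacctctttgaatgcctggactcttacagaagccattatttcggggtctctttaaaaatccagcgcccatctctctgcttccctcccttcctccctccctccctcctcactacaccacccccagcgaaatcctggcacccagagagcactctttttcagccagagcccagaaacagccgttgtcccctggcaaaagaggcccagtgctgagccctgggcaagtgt
G430095P16Rik: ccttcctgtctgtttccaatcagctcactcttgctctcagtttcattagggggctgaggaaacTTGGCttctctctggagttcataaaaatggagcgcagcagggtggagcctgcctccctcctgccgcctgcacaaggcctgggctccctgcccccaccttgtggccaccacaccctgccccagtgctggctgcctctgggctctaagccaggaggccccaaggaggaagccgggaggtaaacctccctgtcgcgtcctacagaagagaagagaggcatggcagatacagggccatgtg
Calr: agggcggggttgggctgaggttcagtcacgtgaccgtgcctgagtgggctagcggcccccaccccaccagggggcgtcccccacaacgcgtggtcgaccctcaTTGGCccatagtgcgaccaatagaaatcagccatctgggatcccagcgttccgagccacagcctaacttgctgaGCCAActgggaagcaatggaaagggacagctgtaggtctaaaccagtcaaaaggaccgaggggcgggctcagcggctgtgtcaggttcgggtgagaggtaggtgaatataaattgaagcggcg

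Gm19417 held 3 TTGGC, Calr 2, and Gm11266 and G430095P16Rik 1 each. Of 32851 start windows in RefSeq's table, 5.29% held TAATTA and 46.7% TTGGC. A match is a string of letters, and no match says nothing about the factor. Nfia has a single start in that table, and distances from any other start were not examined. From the listed start the nearest control Ldb1 peak lay 163, 94.1 and 338 kb away in the 3 libraries. The nearest CTCF and Rad21 peaks lay 16.5 to 16.6 kb away. From the first Nfix start the nearest control Ldb1 peak was 18.6 kb away in each library. RefSeq's table lists 4 Nfix starts, and the other 3 had a CTCF peak within 0.565 to 1.26 kb. For all 3 it was the same weak CTCF region, chr8:84774225-84774584, in the top 94.2% and 62.9% of the CTCF lists.

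Nfia, Nfib and Nfix each carried Ldb1 in control neurons, and Nfic did not. Nfia (chr4:97578066-98118876) held 9, 13 and 5 peaks within 10 kb in the 3 control Ldb1 libraries. Nfib (chr4:82290173-82506751) held 9, 10 and 6. Nfix (chr8:84704712-84801238) held 3, 4 and 3. Nfic (chr10:81396191-81431919) held 0 in each. The lists hold 24877, 28879 and 16067 peaks, and the shortest gave the fewest peaks at Nfia and Nfib. A region is a set of overlapping peaks found in at least 2 libraries of a group, and by that count Nfia had 8 control Ldb1 regions within 10 kb, Nfib 8 and Nfix 3, in all 19. Of all protein-coding genes 39.7% had at least 1 such region, and of the 4931 genes of 50 kb or more 68.3% had one. So the presence of Ldb1 at genes of this length was common; 276 genes had more regions than Nfia or Nfib, and 1263 had more than Nfix. Without control library 1, or without library 2, Nfia and Nfib each had 5 regions, while Nfix kept 3 without any 1 library.

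**Figure D1:**
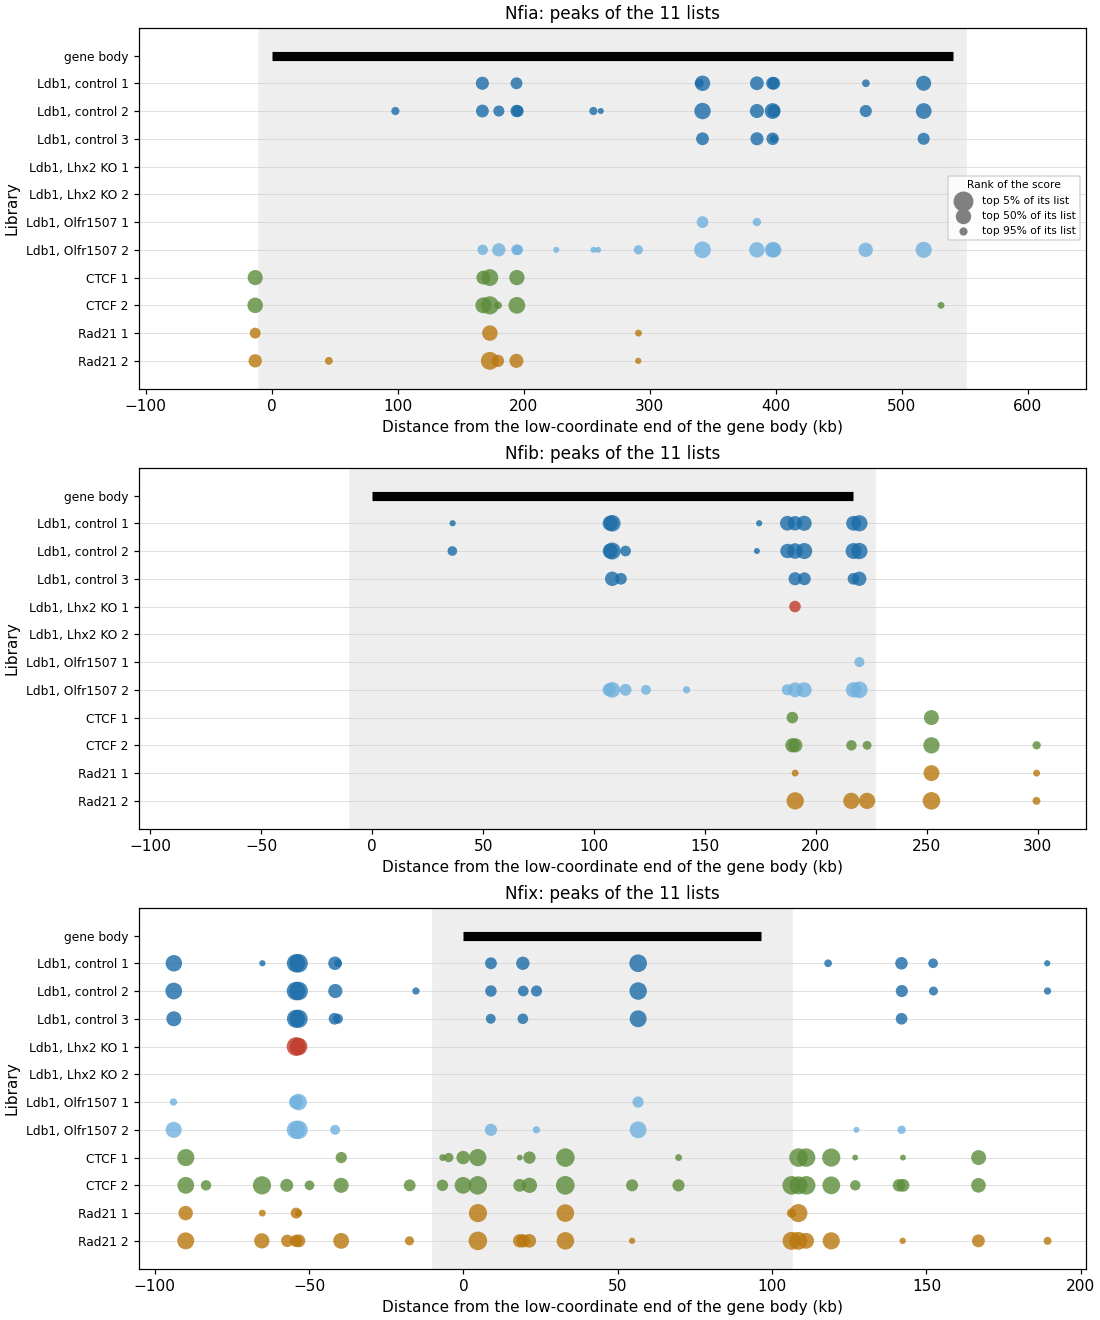
Position of every peak of the 11 lists around Nfia, Nfib and Nfix, in kb from the low-coordinate end of the gene body (black bar); rows are libraries, larger points stand for a higher rank of the score within the list, and grey shading is the body extended by 10 kb. Nfia and Nfib hold rows of Ldb1 peaks with few CTCF or Rad21 peaks, Nfix holds more CTCF than Ldb1 peaks, and the Lhx2 KO rows hold 3 peaks in all.

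The genes differ in length, and a longer window can hold more regions. Nfia spans 541 kb, longer than 99.1% of coding genes, Nfib 217 kb and Nfix 96.5 kb. Per 100 kb of window Nfib had 3.38 control Ldb1 regions, Nfix 2.57 and Nfia 1.43. Among the genes of 50 kb or more, whose median was 0.995, these densities stood at percentiles 87.6, 80.7 and 64.9. The order by density, Nfib, Nfix, Nfia, is thus not the order by number.

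Nfia stands in a gene desert: no other protein-coding gene lies within 100 kb, while 9 noncoding genes do. All 8 of its Ldb1 regions lay inside the gene body, spread over 351 kb, and the wider window added none. Neighbouring regions were a median 43.2 kb apart (0.999 to 148 kb), against 33.4 kb over all neighbouring control Ldb1 regions of the genome. The nearest region to the only listed start lay 163 kb downstream of it, and any other start of Nfia was not examined. The strongest region, chr4:97919764-97920115, ranked in the top 35.8%, 26.1% and 58.3% of the 3 control lists. The weakest, chr4:98049360-98049778, was found in 2 of the 3 libraries, in the top 90.3% and 63.5%. No Nfia region reached the strongest 10% of control Ldb1 regions. In the downstream part lay a close pair, chr4:97975401-97975778 and chr4:97976392-97976784, with centres 998.5 bases apart and both present in all 3 libraries.

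Nfib likewise has no other coding gene within 100 kb. Its 8 regions formed 3 groups, and no further region lay between 10 and 100 kb from the body. A lone weak region, chr4:82326107-82326565, stood nearest the low-coordinate end at a mean percentile of 7.81 (100 is the strongest, and a library without the peak counts as 0). Then came a close pair with centres 904.5 bases apart, chr4:82397286-82397623 and chr4:82398172-82398546. The second of that pair was Nfib's strongest region, in the top 24.3%, 19.6% and 44.6% of the control lists. The other 5 regions filled 32.8 kb at the high-coordinate end, chr4:82477156-82509961, and the last pair of them stood beyond the gene body with centres 0.413 and 3.03 kb outside it. These are the regions on both sides of the Gm11266 start printed above, whose window lay 0.395 to 0.44 kb from the nearest control Ldb1 peak. The median gap at Nfib, 4.17 kb, was the shortest of the 3 genes.

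Nfix lies in a gene-rich stretch with 12 other protein-coding genes within 100 kb, among them the calcium channel gene Cacna1a, the immediate early gene Ier2, the haematopoietic factor gene Lyl1, the Nodal antagonist gene Dand5 and Calr. Its 3 regions within 10 kb were all inside the gene body and present in all 3 libraries. The strongest, chr8:84761133-84761472, ranked in the top 13.5%, 15.2% and 20.8% of the control lists, which was the highest of the 19 regions. It lay 11.6 kb from the nearest listed Nfix start. The weakest, chr8:84713391-84713785, had a mean percentile of 29.3. With 100 kb the number was 11 (75.4% of coding genes had a region within 100 kb), a density of 3.71 per 100 kb at percentile 95.4 of the genes of 50 kb or more, and several of the added regions lie nearer to other genes. Those at Calr, Farsa and Gcdh overlapped these genes' start windows.

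The strongest Ldb1 of the 3 loci stood in that flank of Nfix. Regions chr8:84650254-84650618 and chr8:84651115-84651464, with centres 853.5 bases apart, ranked 1486 and 925 of 22789 control Ldb1 regions by mean percentile. In the control libraries the first was in the top 6.21%, 4.83% and 9.96%, and the second in the top 2.94%, 3.20% and 6.76%. They lay 54.3 and 53.4 kb below the low-coordinate end of Nfix, in the gap between Cacna1a (10.0 kb from the first) and Ier2 (9.87 kb from the second). Nothing in the lists says which gene they act on. A second close pair, chr8:84662780-84663354 and chr8:84663898-84664263, stood at Ier2 with centres 1013.5 bases apart. Within 100 kb of the 3 genes 8 of 27 regions thus had a neighbour within 1.5 kb, 29.6%, against 6.27% of all control Ldb1 regions; that distance was chosen after the values were seen and the difference has no test.

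**Figure D2:**
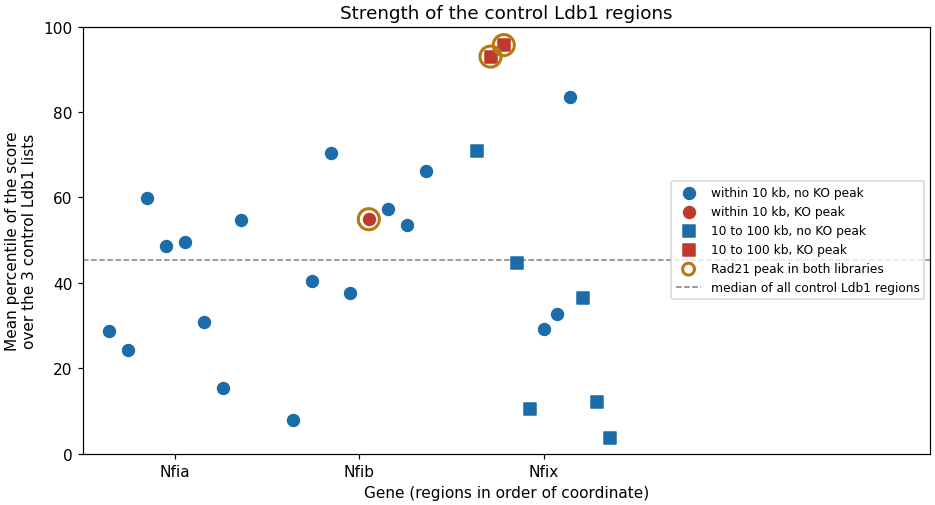
Mean percentile of the score over the 3 control Ldb1 lists (100 is the strongest) for the 27 control Ldb1 regions within 100 kb of Nfia, Nfib and Nfix, in order of coordinate; circles lie within 10 kb, squares beyond, red has a Lhx2 KO peak, rings have Rad21 peaks of both libraries and the dashed line is the median of all regions, 45.3. The 3 red points are the 3 ringed ones, and the Nfix flank pair stands above all others.

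Of the 19 regions within 10 kb, 13 were present in all 3 control libraries, 68.4%, against 65.2% of all control Ldb1 regions. Their median mean percentile was 48.5 (7.81 to 83.5), against 45.3 over all regions, and none was in the strongest 10%. Both measures were near those of all regions.

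In the Lhx2 KO the NFI genes were nearly empty of Ldb1 peaks. KO library 1 held 0 peaks at Nfia, 1 at Nfib and 0 at Nfix within 10 kb, and KO library 2 held 0 at each. With 100 kb, library 1 held 0, 1 and 2, and library 2 again 0 at each. No region was found in both KO libraries, a state shared with most genes, since 1.53% of coding genes had a KO region within 10 kb and 3.20% of those of 50 kb or more (within 100 kb, 6.28% of coding genes). Counted over the 3 genes per 10000 peaks of a list, control Ldb1 libraries held 8.83 ± 0.466 peaks (SD, n = 3) and KO libraries 1.17 ± 1.65 (SD, n = 2). All 3 control libraries were above both KO libraries; the difference of 7.67 had p = 0.1 in a two-sided exact permutation test (0.133 after Benjamini-Hochberg adjustment over 4 comparisons), the smallest that 10 assignments allow.

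The KO lists are short, with 4290 and 542 peaks, and few peaks of any list of that length fall at these genes. Control lists limited to their 4290 top-scoring peaks held 1, 0 and 1 peaks at the 3 genes within 10 kb, and KO library 1 held 1. At 542 peaks each control list held 0, as did both KO lists. At 4290 peaks the 1 peak of control libraries 1 and 3 was at the strongest Nfix region, which had no KO peak. Control library 2 had its peak there at rank 4387.5, just past that limit. The 1 KO peak was at Nfib. These are single peaks. With 0 peaks in every list at 542, and 1 KO list at 4290, equal lengths leave no comparison of the groups.

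The regions with a KO peak were those with peaks of both Rad21 libraries. Within 10 kb 1 of 19 control Ldb1 regions overlapped a KO peak, 5.26%, and within 100 kb 3 of 27, 11.1%, against 13.2% of all control Ldb1 regions (12.7% for KO library 1 and 2.17% for library 2); the share was not above the background. The 3 were chr4:82480597-82480965 in Nfib and the strong pair in the Nfix flank. They were also the 3 of the 27 regions with peaks of both Rad21 libraries, which 3.77% of all control Ldb1 regions had, and none of the other 24 had a KO peak. In KO library 1 the peak at the first region of the flank pair stood in the top 1.64% of the list, that at the second in the top 13.8% and that at Nfib in the top 67.7%. The Rad21 peaks there were mostly low in their lists: in the top 94.0% and 16.9% of libraries 1 and 2 at Nfib, and in the top 72.1% and 61.8%, and 94.0% and 57.9%, at the flank pair. The Nfib region also overlapped a peak of CTCF library 2, and the flank pair no CTCF peak.

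The same association ran through the genome, so it is not particular to NFI genes. Of all control Ldb1 regions with both Rad21 libraries 39.3% had a peak of KO library 1, against 11.6% of the others; with both Rad21 libraries and no CTCF peak the share was 66.4%. Strength in the control lists moved with it: of 10 equal bins by strength, bin 1, the strongest, holds the flank pair, and there the shares were 68.3% with and 32.6% without both Rad21 libraries, while in bin 5, which holds the Nfib region, they were 40.0% and 10.1%. The strongest Nfix gene-body region, in bin 2 and without Rad21, had no KO peak. How much strength, Rad21 and list length each contribute at these loci was not tested.

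In Olfr1507+ cells most of the Ldb1 regions at the NFI genes were present again, in 1 library. The same held for the control Ldb1 regions of the whole genome. Olfr1507 library 1 held 2 peaks at Nfia, 1 at Nfib and 1 at Nfix within 10 kb, and library 2 held 14, 10 and 3. The lists hold 5095 and 21250 peaks, and the longer held more at each gene. Per 10000 peaks of the list the 3 genes had 7.85 in library 1 and 12.7 in library 2, so the libraries still differed. Of the 19 control regions 16 had a peak of library 2, 84.2%, against 73.5% of all control Ldb1 regions (73.7% with either library). A peak of library 1 was found at 4, against 21.8% of all regions, and the same 4 had both libraries, against 21.6%. By gene, 8 of 8 regions at Nfia, 6 of 8 at Nfib and 2 of 3 at Nfix were shared. The regions with both libraries were 2 at Nfia, among them its strongest, chr4:82509608-82509961 at Nfib, and the strongest at Nfix. Regions found in both Olfr1507 libraries exist at 11.6% of coding genes and 28.9% of those of 50 kb or more (within 100 kb, 35.0% of coding genes). In the flank of Nfix both members of the strong pair were present in both libraries, in the top 48.9% and 6.48%, and 24.6% and 5.29%. That pair was therefore the only site in the 3 windows with peaks of all 3 control, 1 KO and both Olfr1507 Ldb1 libraries.

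Per 10000 peaks of a list, Olfr1507 libraries held 10.3 ± 3.43 peaks (SD, n = 2) at the 3 genes, against 8.83 ± 0.466 (SD, n = 3) in control Ldb1 libraries. The groups overlapped, and the difference of -1.44 gave p = 0.6 (adjusted 0.6) in the same exact permutation test. The difference was 0.984 without Olfr1507 library 2 and 1.05 in the top-scoring 50% of each list, the opposite sign. It was larger and of the same sign in other settings, where both Olfr1507 libraries were above all control libraries: -3.93 with 5095 top peaks of each list, at which the Olfr1507 lists held 4 and 2 peaks and the control lists 1 each, and -2.29 within 100 kb, each at p = 0.1 in the exact permutation test. In Olfr1507 library 2, 3 of 14 peaks at Nfia, 3 of 10 at Nfib and 0 of 3 at Nfix overlapped no control Ldb1 peak, where 12.2% of its whole list did not. In library 1 each of the 4 peaks overlapped one, with 1.61% of the list overlapping none. Among those of library 2 at Nfia was the peak on the Gm19417 start printed above.

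**Figure D3:**
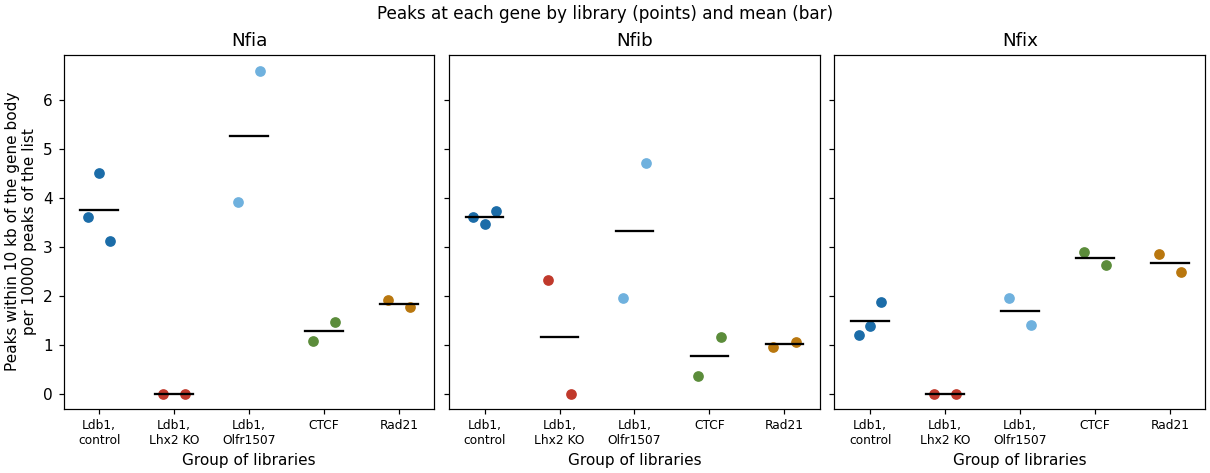
Peaks within 10 kb of Nfia, Nfib and Nfix per 10000 peaks of each list; points are libraries of the 5 groups and bars their means. Control Ldb1 libraries stand above CTCF and Rad21 at Nfia and Nfib and below both at Nfix, and the KO libraries are at 0 except for 1 point at Nfib.

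CTCF and Rad21 divided the genes the other way. CTCF libraries 1 and 2 held 3 and 5 peaks within 10 kb of Nfia, 1 and 4 at Nfib, and 8 and 9 at Nfix. Rad21 libraries 1 and 2 held 2 and 5 at Nfia, 1 and 3 at Nfib, and 3 and 7 at Nfix. Nfix, the shortest of the 3, thus had the most of both in each library. In regions, CTCF had 3 at Nfia, 1 at Nfib and 7 at Nfix, and Rad21 had 2, 1 and 3. A CTCF region was found at 56.5% of coding genes (77.0% of those of 50 kb or more) and a Rad21 region at 31.6% (47.8%), or within 100 kb at 84.1% and 68.5%, so that presence alone says little; 113 genes had more CTCF regions than Nfix. Per 100 kb the CTCF densities were 0.535, 0.423 and 6.01, at percentiles 30.1, 27.5 and 98.9 of the genes of 50 kb or more (median 1.15).

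Over the 3 genes CTCF libraries held 4.80 ± 0.647 peaks per 10000 (SD, n = 2) and Rad21 libraries 5.52 ± 0.278 (SD, n = 2), and every control Ldb1 library was above them. The differences from control Ldb1, 4.03 and 3.31, each had p = 0.1 in the exact permutation test (adjusted 0.133), the smallest possible. The separation from Rad21 did not hold in the wider window: within 100 kb control Ldb1 libraries had 12.1 to 12.5 peaks per 10000 and Rad21 libraries 13.35 and 11.01, on both sides of them, a difference of 0.162 (p = 0.8, exact permutation). In the top-scoring 50% of each list the differences were 0.992 from Rad21 (p = 0.6) and 1.96 from CTCF (p = 0.3, both exact permutation). All 4 comparisons share the control Ldb1 libraries. The sum hides opposite orders: at Nfia the 3 control Ldb1 libraries had 3.11 to 4.50 peaks per 10000 and the CTCF libraries 1.09 and 1.46, while at Nfix the control Ldb1 libraries had 1.21 to 1.87 and the CTCF libraries 2.63 and 2.90. The groups did not overlap at either gene.

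**Figure D4:**
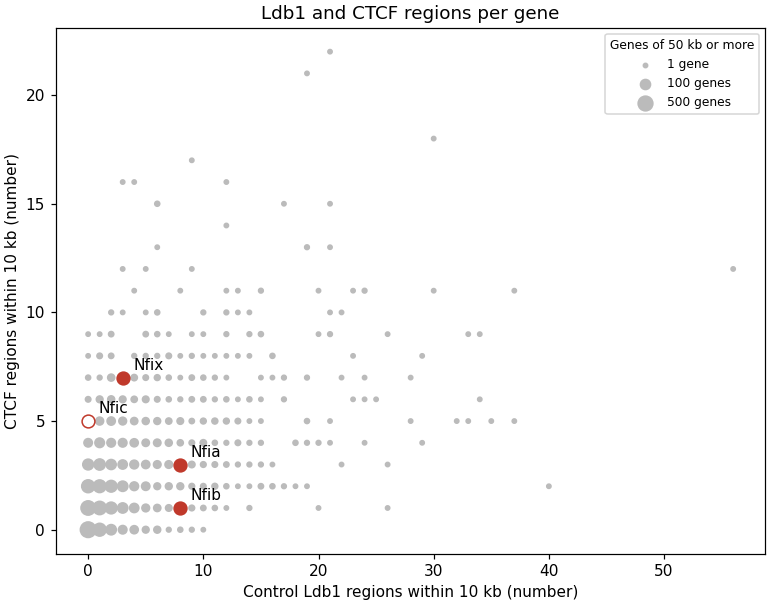
Number of control Ldb1 regions (horizontal) and CTCF regions (vertical) within 10 kb of each protein-coding gene of 50 kb or more; grey points grow with the number of genes at that spot, red points are Nfia, Nfib and Nfix, and the open point is Nfic, which is shorter. Nfia and Nfib lie at 8 Ldb1 regions with 3 and 1 CTCF regions, Nfix at 3 and 7, and Nfic at 0 and 5.

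The strongest CTCF of the members was inside Nfix, at chr8:84737548-84737902, in the top 3.40% and 1.94% of the CTCF lists and ranked 394 of 24877 regions. It overlapped a Rad21 region in the top 13.7% and 14.6%. A second, chr8:84709175-84709518 near the low-coordinate end of the gene, was in the top 17.6% and 3.94% and overlapped a Rad21 region in the top 7.89% and 3.04%. Beyond the other end, CTCF regions chr8:84813092-84813435, chr8:84815554-84815897 and chr8:84823683-84824026, in or near Dand5, also ranked in the strongest 10%, so that 5 of the 15 CTCF regions within 100 kb of Nfix did. Nfia's main site, chr4:97750979-97751322, was in the top 21.4% and 7.01% for CTCF and overlapped a Rad21 region. Nfib's 1 CTCF region, chr4:82479403-82479746, was in the top 67.6% and 46.7% and lay within the group of 5 Ldb1 regions.

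CTCF and Rad21 regions coincided in part. Within 10 kb 3 of 11 CTCF regions overlapped a Rad21 region, against 36.8% of all CTCF regions, and 5 of 11 had a peak of Rad21 library 2. Conversely 3 of 6 Rad21 regions within 10 kb, and 7 of 14 within 100 kb, overlapped a CTCF region, against 92.5% of all Rad21 regions. A CTCF region needs both libraries, and some of the rest overlapped a peak of CTCF library 2 only. These were chr4:82480696-82481015, chr4:82589498-82589830, chr8:84639227-84639690 and chr8:84810846-84811155. Of the 7 without a CTCF region 3 were the Ldb1 regions with a KO peak, and 1 was the Gm19417 start in Nfia, in the top 94.0% and 96.4% of the Rad21 lists. These are small counts with no test.

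Ldb1 and CTCF were mostly at separate places, at these genes as over all control Ldb1 regions. Of the 19 control Ldb1 regions within 10 kb 3 overlapped a CTCF or Rad21 peak, 15.8%, against 26.2% of all control Ldb1 regions; within 100 kb it was 7 of 27, 25.9%. CTCF peaks touched 2 of the 19, namely chr4:97772173-97772593 in Nfia, with peaks of both CTCF libraries and Rad21 library 2, and the Nfib region with a KO peak. None of the 11 Ldb1 regions within 100 kb of Nfix overlapped a CTCF peak although 15 CTCF regions lie in that window; the Calr region came closest, sharing its promoter but not its bases with CTCF. Over all control Ldb1 regions 9.56% had a CTCF peak. The 2 of 19 was near that share, and 25.9% was near 26.2%, so the separation is not particular to NFI genes. The count of none at Nfix is small and has no test.

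Nfic carried CTCF without Ldb1. It had 5 CTCF regions within 10 kb, 8.97 per 100 kb, but 0 Ldb1 regions. Having no control Ldb1 region within 10 kb was the more common state, since 39.7% of all coding genes had one. Rad21 gave 0 regions because a region needs both libraries: library 2 held 4 peaks there and the shorter library 1 held 0. Nfic spans 35.7 kb with 16 other coding genes within 100 kb. The 3 control Ldb1 regions of the wider window lay at the starts of Hmg20b, Fzr1 and Ncln, and the strongest, at Hmg20b, had a mean percentile of 70.5.

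By the pattern of log2(1 + peaks within 10 kb) over the 11 lists, where a smaller Euclidean distance means more alike, Nfia and Nfib were 1.86 apart, Nfia and Nfix 3.25, and Nfib and Nfix 3.81. Of all coding genes 0.505% were nearer to Nfia than Nfib was. The 3 nearest genes to Nfia were Fstl4 (0.993), Plcl1 (1.12) and Osbpl8 (1.14). Those nearest to Nfib were Dock8 (1.12), Plppr1 (1.16) and Ncoa1 (1.25), and those nearest to Nfix were Med13l (0.883), Dpy19l3 (0.972) and Ccdc60 (1.09). Dock8 and Plppr1 shared with Nfib 1 peak of KO library 1, a list that took part in choosing them.

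Among 18 transcription factor genes of olfactory neuron development 13 had a control Ldb1 region within 10 kb, against 39.7% of all coding genes, with a median of 2 regions against 0 over all coding genes. Ebf2 (28), Ebf1 (26) and Ebf3 (15), helix-loop-helix factors of olfactory neurons, had more than any NFI gene. A KO region was found at 4 of the 18 and at no NFI gene, against 1.53% of all coding genes and 3.20% of the long ones. An Olfr1507 region was found at 9, against 11.6% and 28.9%. Of 9 genes known around NFI factors in the nervous system, as an upstream factor or reported targets, 4 had a control Ldb1 region: Gfap had 2, and Ezh2, Hes1 and Insc 1 each. That count is near the 39.7% of all coding genes. The median was 0, 8 of the 9 had a CTCF region (56.5% of all coding genes) and none had a KO region. As a check of the cell type, 5 of 5 genes marking mature olfactory neurons and 2 of 2 marking immature ones had a control Ldb1 region, while 0 of 3 sustentacular and 1 of 2 basal cell genes did; these say where Ldb1 was, not which cells were sorted.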

How the data were processed

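Of 28 samples, the 11 with a peak list were used; 3 inputs and 14 RNA samples, of which 2 have labels that disagree, were not analysed here. The submitters' processing notes name HOMER 4.7, SAMtools 1.3.1, Bowtie2 2.3.2, Picard, STAR 2.5.3a and cutadapt 1.9.1, with no roles, and the build mm10. How peaks were thresholded was not given in the sources used here. Lists are deposited per library. The deposited score of a peak is the authors' own, of unknown scaling, and served only to rank peaks within a list. Depth is unknown.

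Peaks off the numbered chromosomes, X and Y were dropped. Regions are peaks linked by an overlap of 1 base that include at least 2 libraries of a group. Genes came from a RefSeq table without strand or exons; those ending before 3 Mb, which lie on scaffolds, were left out. Library means were compared by two-sided exact permutation. The region counts have no test. The code (Python 3.11.15, pandas 2.3.3) was tested on simulated data and recovered the planted regions at 198 of 198 genes. Simulated peaks of single libraries were kept away from those genes, so only the building and counting of regions was checked. The permutation test was not part of it. Named are the members, Nfic, each member's strongest and weakest Ldb1 region, regions in both KO libraries, the 3 most similar genes, coding genes of the 100 kb windows and the top 3 of each gene list; other regions were picked after their values were seen. Members and lists were chosen with earlier results of these data known. Alternatives were reciprocal overlap of 50%, centres within 200 bases, the top-scoring 50% of each list, equal numbers of peaks, the bare gene body, 100 kb windows and leaving out each library.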

Additional observations from a re-analysis of the deposited data

How the results depend on the processing

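The limits are the short KO lists, 2 libraries in most groups and the missing depth. Per 10000 peaks, control minus KO was 0 (p = 1, exact permutation) with 542 top peaks of each list, where all 5 lists held 0 peaks at the genes, so that setting cannot separate them. In the top-scoring 50% of each list it was 6.70 (p = 0.2, exact permutation). Control minus Olfr1507 turned to 1.05 (p = 0.8, exact permutation) in the top-scoring 50% of each list, and to 0.984 without Olfr1507 library 2. With equal numbers of top peaks it was -3.93 and within 100 kb -2.29 (each p = 0.1, exact permutation). Control Ldb1 minus Rad21 was 0.162 within 100 kb (p = 0.8), 0.992 in the top-scoring 50% (p = 0.6) and 2.07 with equal numbers of peaks (p = 0.1, all exact permutation). Control Ldb1 minus CTCF was 1.96 in the top-scoring 50% (p = 0.3, exact permutation) and 3.24 within 100 kb. The causes were not tested. Leaving out 1 library, the differences ranged from 6.50 to 8.83 for KO, -3.87 to 0.984 for Olfr1507, 3.57 to 4.49 for CTCF and 3.05 to 3.51 for Rad21.

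Region counts moved more. In the top-scoring 50% of each list they were 10 for control Ldb1, 5 for CTCF, 3 for Rad21 and 0 for Olfr1507, and within 100 kb 21 for CTCF, 14 for Rad21 and 7 for Olfr1507. Without 1 library they ranged from 13 to 19 for control Ldb1, where a region then needs both remaining libraries. In the other groups 1 remaining library then makes a region. Their ranges were 12 to 18 for CTCF, 6 to 15 for Rad21, 0 to 1 for KO and 4 to 27 for Olfr1507. Control Ldb1 regions with a KO peak were 0 in the top-scoring 50% and 3 within 100 kb (0 to 1 without 1 library), those with an Olfr1507 peak 8 in the top-scoring 50% (4 to 16) and those with CTCF or Rad21 1 and 7 (2 to 3).

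The labels give the groups shared replicate numbers but no pairing. Across genes, deviations of same-numbered libraries from their group means correlated from -0.106 to 0.137. In a group of 2 libraries the deviations are mirror images, so these values cannot show whether libraries were paired. With the replicate block the differences were 7.73 for KO, -1.38 for Olfr1507, 4.09 for CTCF and 3.37 for Rad21, with 0.5 the smallest p that 2 pairs allow by exact sign flips.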
